A study of Mus musculus with 28 samples.

Results

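The genes described here are 38 genes that Müller glia use to keep their identity and to maintain the retina around them. They were taken as a fixed list and sorted into 5 groups by role: transport and glutamate cycle (11 genes), retinoid cycle (3), water and potassium (8), structure and matrix (6), and metabolic, secreted and other (10). They are 38 of 21938 coding genes in the annotation. A region was assigned to a gene when it overlapped the gene or the 5 kb to either side of it, which gave 146 of the 46189 open regions in control cells and 205 of the 64883 open regions in db/db cells.

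The study asked how Müller cells of the mouse retina change in type 2 diabetes. Chromatin accessibility was measured by ATAC-seq (cutting and tagging of open DNA by a transposase before sequencing) on Müller cells purified from mice at 6 months of age. The db/db mice are homozygous for a mutation of the leptin receptor on a BKS background, from a colony founded with animals of Jackson Laboratories and Janvier Labs, and become obese and diabetic. The controls are labelled WT, and the study's methods count both wild type and heterozygous db/+ mice as controls; mice of both sexes were used. Müller cells were taken as the CD29+ cells left after magnetic removal of CD11b+ and CD31+ cells, a gate that can also hold some retinal astrocytes. The study also states that photoreceptors contaminate this population to an extent that is unavoidable. The labels give 2 biological replicates per genotype, and 1 peak list per genotype was analysed here. There is therefore no replicate check between the genotypes and no p-value is given. Intervals are 95% Wilson intervals for shares and order-statistic intervals for medians. They cover counting error only, and neighbouring regions of a gene are not independent of each other.

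Müller glia span the whole thickness of the retina. They clear glutamate through SLC1A3 and convert it to glutamine with glutamine synthetase (Glul), release potassium and move water through KIR4.1 (Kcnj10) and aquaporin-4 (Aqp4), and take part in the regeneration of visual pigment through the retinaldehyde-binding protein CRALBP (Rlbp1). Open chromatin at a gene marks its promoter and candidate enhancers, but it is not a measure of its transcription.

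Of 38 genes, 29 matched the RefSeq promoter table (GRCm38.p6), which holds the 250 bases before and 50 bases after a transcript start. The sequence before the start is shown for 5 genes that span the range of promoters seen below. Rlbp1 and Slc1a3 have few CpG dinucleotides (6 and 2), and Kcnj10 has 17. Kcnj2 had the highest-ranking promoter of the list by signal, and Gja1 had no open promoter region. Capitals mark matches, on either strand, to 10 motifs: SOX (ATTGTT), NFI half-site (TTGGCA), AP-1 (TGANTCA), TEAD (GGAATG), homeodomain (TAATTA), CRX (GGATTA), glucocorticoid receptor (GNACA and TGTNC with 3 bases between), CCAAT, GC box (GGGCGG) and TATAAA, the TATA box. Each is written 5′ to 3′ in the direction of transcription. The last bases of the Rlbp1 window lie in an annotated exon and are left out.
Rlbp1, chr7:79387049-79387277, minus strand: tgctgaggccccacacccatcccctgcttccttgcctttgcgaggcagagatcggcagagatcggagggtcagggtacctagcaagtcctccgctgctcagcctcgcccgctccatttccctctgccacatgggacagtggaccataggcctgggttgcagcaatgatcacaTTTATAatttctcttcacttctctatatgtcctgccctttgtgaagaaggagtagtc
Slc1a3, chr15:8710808-8711057, minus strand: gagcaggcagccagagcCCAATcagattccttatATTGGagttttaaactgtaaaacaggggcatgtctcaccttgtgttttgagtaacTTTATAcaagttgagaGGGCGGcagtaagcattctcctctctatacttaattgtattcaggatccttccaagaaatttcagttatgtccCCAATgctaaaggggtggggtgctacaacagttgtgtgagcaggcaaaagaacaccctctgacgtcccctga
Kcnj10, chr1:172340960-172341209, plus strand: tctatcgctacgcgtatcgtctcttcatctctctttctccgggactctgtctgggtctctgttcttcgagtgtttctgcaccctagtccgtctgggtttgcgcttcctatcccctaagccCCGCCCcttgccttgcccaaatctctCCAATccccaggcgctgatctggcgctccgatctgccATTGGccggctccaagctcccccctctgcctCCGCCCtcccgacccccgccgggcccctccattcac
Kcnj2, chr11:111065914-111066163, plus strand: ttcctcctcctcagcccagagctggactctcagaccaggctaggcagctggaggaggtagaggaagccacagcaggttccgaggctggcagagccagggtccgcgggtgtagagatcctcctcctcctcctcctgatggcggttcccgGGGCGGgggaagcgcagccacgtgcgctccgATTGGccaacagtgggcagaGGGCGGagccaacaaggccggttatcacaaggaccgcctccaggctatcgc
Gja1, chr10:56377050-56377299, plus strand: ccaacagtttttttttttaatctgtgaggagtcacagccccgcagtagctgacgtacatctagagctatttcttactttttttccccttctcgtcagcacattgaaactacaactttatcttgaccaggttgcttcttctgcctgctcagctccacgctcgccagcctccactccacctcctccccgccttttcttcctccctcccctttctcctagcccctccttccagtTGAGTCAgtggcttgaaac

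The Rlbp1, Kcnj10 and Kcnj2 sequences lay wholly inside an open region in both lists. For Slc1a3, 200 of 250 bases were covered in control and 199 in db/db. No base of the Gja1 sequence was covered in either list. The Kcnj10, Kcnj2 and Slc1a3 sequences all hold CCAAT and GC box matches, with 2 of each at Kcnj10 and 1 CCAAT and 2 GC boxes at Kcnj2. At Slc1a3 the CCAAT matches start 233, 216 and 72 bases before the transcript start. Its GC box match starts 145 bases before the start and a TATA match 161 bases before it. The Rlbp1 sequence also holds a TATA match, which starts 78 bases before the transcript start. Gja1 holds an AP-1 match 19 bases before it. None of the 10 motifs set the whole list apart by more than its interval, with the exception of the glucocorticoid receptor motif: 1 of 36 windows, that of Car14, holds it (2.78%, interval 0.492 to 14.2), against 0.442% of 21262 coding gene windows. A single window carries that difference. CCAAT was in 16 of 36 windows (44.4%, against 38.2%) and the GC box in 17 (47.2%, against 46.2%). The homeodomain match was in 4 (11.1%, 4.41 to 25.3, against 4.53%) and the TEAD match in 7 (19.4%, 9.75 to 35.0, against 13.6%). A match is a description of the letters and not a binding site.

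Nearly all of these genes had an open promoter. A promoter region was one that overlapped the 1 kb to either side of an annotated transcription start site of the gene. Of 38 genes, 37 had at least 1 in the control list and the same number in the db/db list, against 59.4% of all coding genes in control and 62.5% in db/db. The exception was Gja1, which encodes the gap junction protein connexin 43 and had no region in the gene or within 5 kb in either list. The nearest region to Gja1 lay upstream, 7866 bp away in control and 7838 bp in db/db, and was found in both lists. It held percentile 31.9 of the signal in control and 47.5 in db/db.

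Genes with CpG-poor windows stood out for how many had a promoter region. CpG-poor windows were those with an observed-to-expected CpG ratio under 0.4, taking the highest ratio where a gene had several windows. A promoter region could lie at any annotated start of the gene, so it need not cover the CpG-poor window. All 12 of the genes in this class had a promoter region in both lists, against 15.6% of 6464 coding genes of the class in control and 18.4% in db/db. The number of starts per gene was not matched. They are Abca8a, Aldoc, Cp, Crb1, Hepacam, Mlc1, Ptgds, Rgr, Rlbp1, Slc1a2, Slc1a3 and Sparc. Among 60 other genes of the same pathways, 10 of 16 with CpG-poor windows had a promoter region in control and 9 of 16 in db/db. In the class with a ratio over 0.7, where all 9 of the genes had one, 90.0% of all coding genes did so in control as well.

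The rank of these promoters depended on which deposited measure was used. Regions were ranked within a list, from 0 for the weakest to 100 for the strongest, by the authors' signal or by their −log10 p. By the signal, the strongest promoter region of each gene had a median percentile of 38.7 in control (32.2 to 63.0, n = 37 genes), against 78.0 for all coding genes with a promoter region. In db/db the median was 54.2 (47.8 to 69.9), against 80.7. By −log10 p the median was 83.3 in control (76.0 to 86.8), against 83.8, and 89.5 in db/db (86.9 to 91.3), against 85.5. The low rank of the list thus holds for the signal alone.

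**Figure D1:**
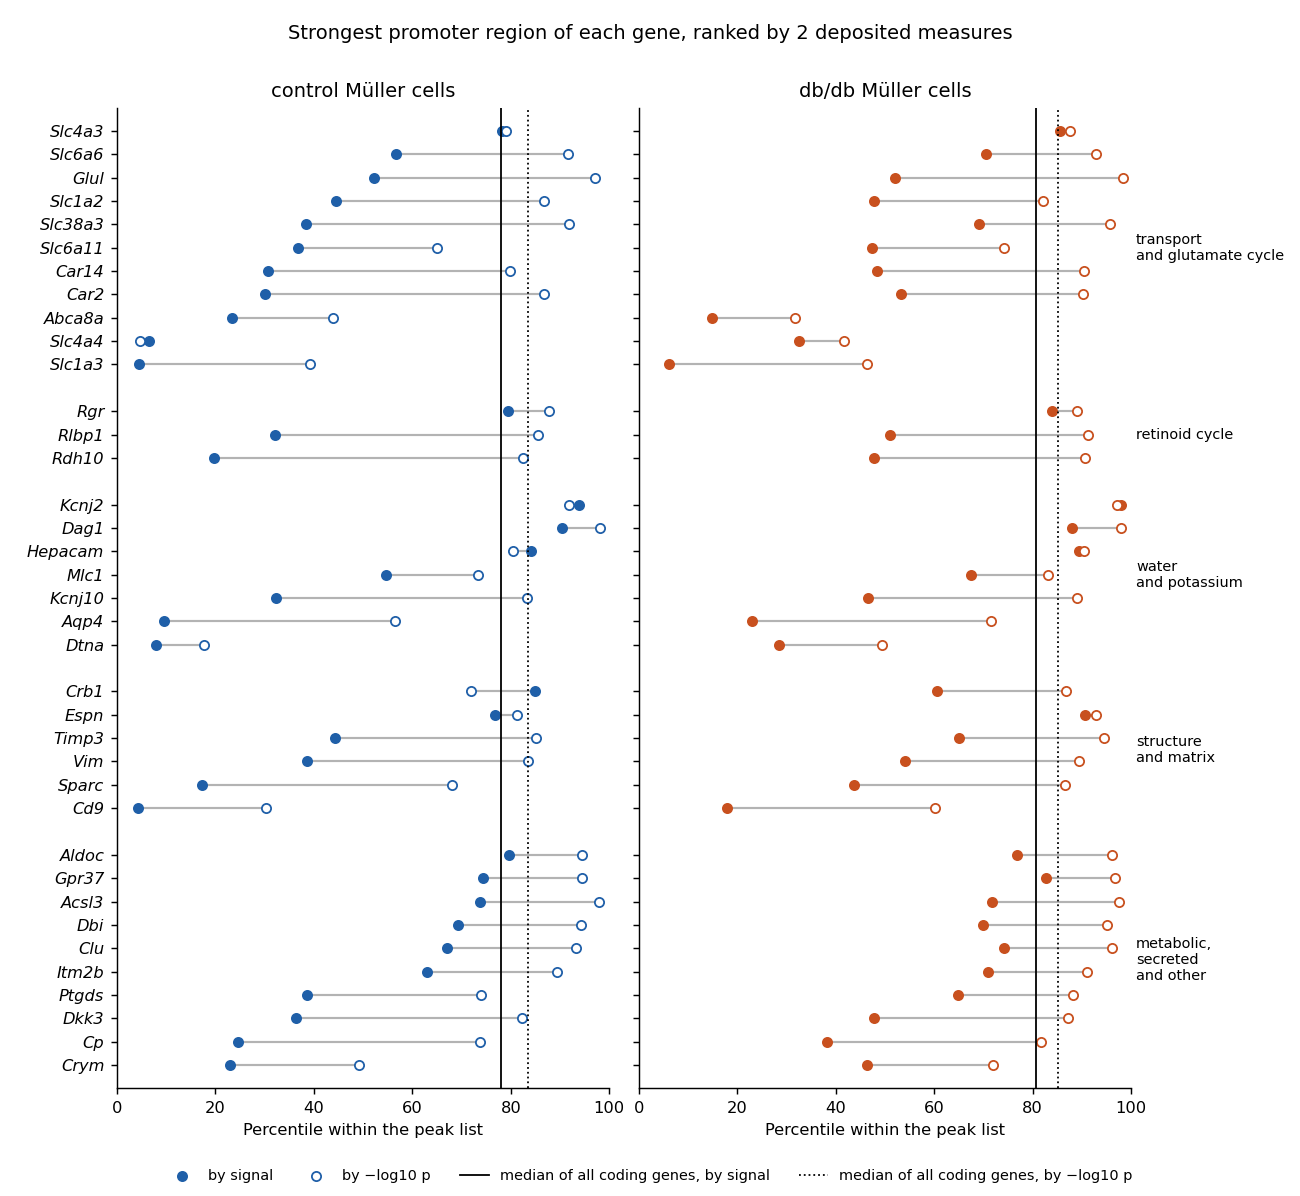
Percentile of the strongest promoter region of each of 37 genes within the control list (left) and the db/db list (right), by signal (filled points) and by −log10 p (open points). Vertical lines are medians of all coding genes with a promoter region, and in control most filled points lie left of the solid line at 78.0 while most open points lie near or right of the dotted line at 83.5; the region is the one with the highest signal in both cases.

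The same region often ranked far higher by −log10 p than by signal. Taking the region with the highest signal at each gene, the gap was 26.4 points at the median in control (20.6 to 42.1), against 2.43 points for all coding genes. It reached at least 25 points at 22 of 37 genes in control (59.5%), against 13.5% of coding genes, and at 21 of 37 in db/db (56.8%), against 9.86%. The threshold of 25 points was chosen after the values were seen. Among the other 60 pathway genes, 13 of 49 in control and 10 of 48 in db/db reached it. The median width of these promoter regions was 983 bp in control, against 964 bp for all coding genes. Set beside coding genes of similar region width (10 equal classes of width), 31 of 37 genes had a wider gap than the median of their class in control and 34 of 37 in db/db. Beside coding genes with the same number of regions, 29 and 33 of 37 did. A promoter near the top by signal leaves no room for a gap of 25 points. Coding genes stood higher by signal than the list, with medians of 78.0 against 38.7 in control. The contrast in the gap is therefore partly set by the signal rank, on which neither comparison was matched. Why the measures differ was not tested.

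The gap was also wide at defining Müller genes. The Glul promoter region had a signal of 10.9 in control and 8.84 in db/db, percentiles 52.2 and 52.0, while its −log10 p was 979 and 923, percentiles 97.1 and 98.4. At Rdh10, a retinol dehydrogenase, the promoter stood at percentile 19.7 by signal and 82.5 by −log10 p in control, a gap of 62.8 points. The Glul region also lay within 1 kb of a start site of Teddm2, and the Rdh10 region within 1 kb of one of Rpl7. Rlbp1 stood at 32.2 and 85.5 in control and at 51.0 and 91.3 in db/db. Kcnj10 stood at 32.4 and 83.3 in control and at 46.5 and 89.1 in db/db. All 7 Müller markers checked (Sox9, Lhx2, Hes1, Rlbp1, Glul, Kcnj10 and Slc1a3) had a promoter region in both lists and a gap of at least 25 points in both; the last 4 of these are also among the 38 genes. The gap was not seen at Müller markers alone. The 2 vascular markers with a promoter region reached it in both lists as well, with a median of 48.0 points in control and 41.9 in db/db, while neither of the 2 astrocyte markers with a promoter region did.

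The strongest control promoters by signal belonged to genes of several groups. Kcnj2, an inwardly rectifying potassium channel, stood at percentile 93.8 in control and 98.0 in db/db. Dag1, which encodes the dystroglycan that anchors the glial endfoot to the basal lamina, stood at 90.4 and 88.1. Crb1, a cell polarity protein of the outer limiting membrane, reached 85.0 in control at an internal start site described below. Hepacam, a cell adhesion protein, stood at 84.1 and 89.4, and Aldoc, a glycolytic aldolase, at 79.7 and 76.8. At Kcnj2 and Hepacam the rank by −log10 p was within 5 points of the rank by signal in both lists.

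The weakest control promoters by signal included defining Müller genes. The tetraspanin Cd9 stood at percentile 4.26 in control and 17.9 in db/db. The glutamate transporter Slc1a3 stood at 4.54 and 6.22, with a signal of 4.78 and 4.17. The bicarbonate transporter Slc4a4 stood at 6.56 and 32.6. Dtna, encoding the scaffold protein α-dystrobrevin, stood at 7.91 and 28.5, and Aqp4 at 9.57 and 22.9. By −log10 p these 5 promoters stood at 30.2, 39.3, 4.68, 17.8 and 56.4 in control, in the same order. In db/db they stood at 60.2, 46.3, 41.8, 49.4 and 71.5. All of them ranked higher in db/db within the longer db/db list, by the smallest amount at Slc1a3.

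At several genes the region with the highest signal lay away from the promoter. At Slc1a3 it lay downstream of the gene (chr15:8629084-8629952) and stood at percentile 64.7 in control and 74.2 in db/db. At Kcnj10 it lay downstream as well, at percentiles 95.3 and 93.7, and within 1 kb of a start site of Pigm, so that it cannot be assigned to Kcnj10. The highest Kcnj10 region inside the gene, 8801 bp from its start, stood at 62.9 and 81.3. At Slc4a4 an intronic region stood at 90.0 and 93.2, far above its promoter. In all, distal regions of the list had a median percentile of 24.2 by signal in control, against 39.1 for distal regions at all coding genes, and 42.0 by −log10 p, against 38.6. In db/db they were lower by both measures, at 25.6 by signal, against 40.6, and at 37.96 by −log10 p, against 41.22.

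Most regions at these genes were present in both lists. A region was counted as shared when at least 1 bp overlapped a region of the other list. Of 146 regions in control, 4 had no counterpart in db/db (2.74%, 1.07 to 6.83), against 3.91% of regions at all coding genes. Coding genes with the same numbers of regions would give 6.17 missing regions. Of 205 regions in db/db, 57 had no counterpart in control (27.8%, 22.1 to 34.3), against 29.1% at all coding genes, where equal numbers of regions would give 63.7. In these full lists neither share differed from all coding genes by more than its counting error. The db/db list is longer. With both lists cut to equal numbers of regions by −log10 p, 15.8% of control regions were missing from db/db (10.7 to 22.5), against 12.1% at all coding genes. On the same cut 8 of 134 db/db regions were missing from control (5.97%, 3.06 to 11.3), against 11.6%, a share just above that interval.

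**Figure D2:**
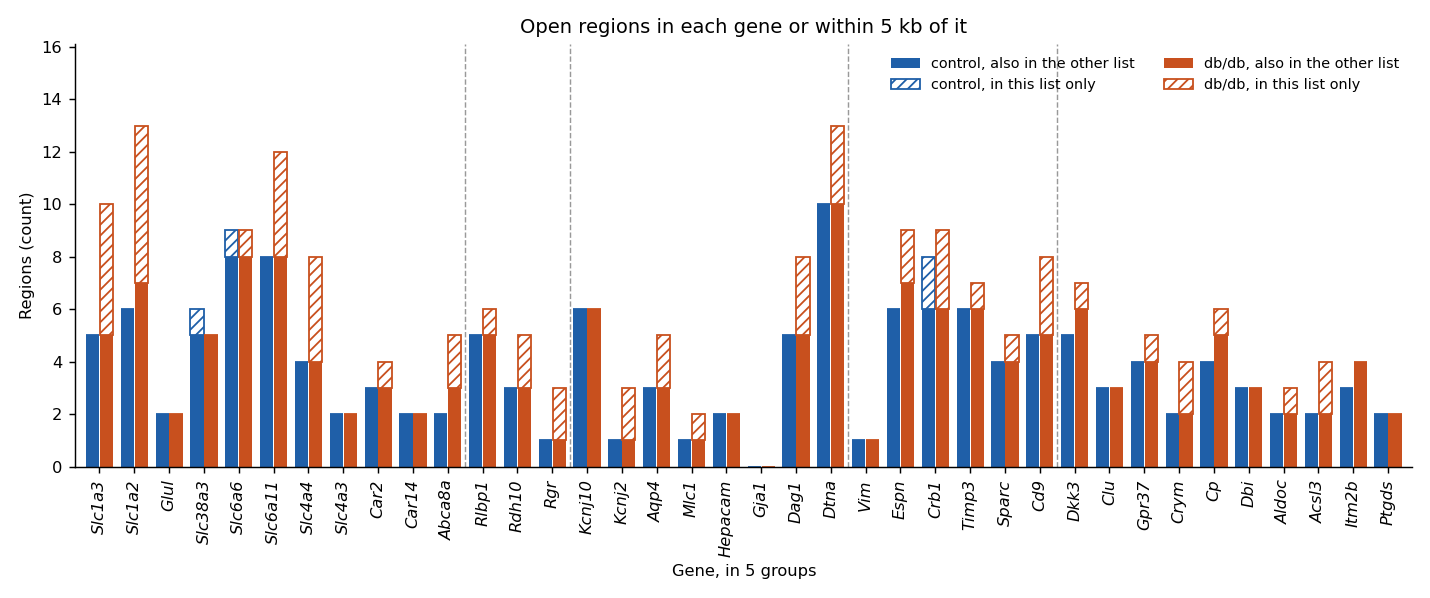
Number of open regions at each of the 38 genes in control (blue) and db/db (orange), with hatched parts for regions found in that list only and dashed lines between the 5 groups. Hatched db/db parts occur at 26 genes and hatched control parts at 3.

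The 4 control-only regions lay at 3 genes. Slc38a3, which encodes a glutamine transporter, had 1 in an intron (chr9:107657143-107657580), 93 bp before an annotated internal start, at percentile 5.20. Slc6a6, the taurine transporter, had 1 in an intron (chr6:91685840-91686307) at percentile 7.89. Crb1 had 2 in introns, at percentiles 25.0 (chr1:139254709-139254981) and 30.3 (chr1:139267901-139268170). All 4 were in the lower part of the control list.

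The 57 db/db-only regions lay at 26 genes and were mostly weak. Of them, 48 stood below percentile 25 of the db/db list (84.2%), against 57.0% of db/db-only regions at all coding genes; the db/db regions of the list ranked low as a whole, with 46.3% of all 205 below percentile 25, against 26.3%. In introns lay 41 of the 57 (71.9%, 59.2 to 81.9), against 78.7% of db/db-only regions at coding genes. Slc1a2, the glutamate transporter GLT-1, had 6, Slc1a3 had 5, and Slc6a11, a GABA transporter, and Slc4a4 had 4 each. Together these 4 genes held 19 of the 57. The strongest lay downstream of Mlc1, a membrane protein of glial endfeet, at percentile 70.6, but within 1 kb of a start site of Ttll8. Next came an intronic region of Sparc, a matrix protein, at 50.6, and regions downstream of Rgr, a retinal G protein-coupled receptor, at 47.8 and 46.8. Promoter regions made up 8 of the 57 (14.0%, against 16.1% at coding genes), the highest being that of Abca8a, a lipid transporter of the ABC family, at 14.9.

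At equal rank between percentiles 25 and 50, db/db-only regions were less frequent at these genes than at coding genes as a whole by both measures. Below percentile 25 the share lay under that of coding genes by more than its interval for the signal alone. Between percentiles 25 and 50 by signal, 7 of 53 regions were db/db-only (13.2%, 6.55 to 24.8), against 37.8%. Below percentile 25 it was 48 of 95 (50.5%, 40.6 to 60.4), against 63.2%. Between 50 and 75 it was 2 of 36 (5.56%, 1.54 to 18.1), against 13.3%, and above 75 it was 0 of 21 (0 to 15.5), against 1.42%. Ranked by −log10 p, the share between 25 and 50 was 9 of 40 (22.5%, 12.3 to 37.5), against 37.8%, which lies just above that interval. Below 25 it was 47 of 63 (74.6%, 62.7 to 83.7), against 79.5%. Between 50 and 75 it was 1 of 39 (2.56%, 0.454 to 13.2), against 6.38%, and above 75 it was 0 of 63 (0 to 5.75), against 0.0938%.

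Shared regions at these genes ranked higher in db/db within the lists, but not once ranks were taken among shared regions alone. The change was computed for 136 regions that met exactly 1 region of the other list, as db/db minus control percentile of the signal. Within each list the median change was 11.1 points (8.38 to 13.5), against 7.94 at all coding genes. By −log10 p the median change was 9.59 points, against 9.58, and 48.5% of regions were at least 10 points higher, against 48.8%, and 3 regions at least 10 points lower (2.21%, against 1.95%), so that the excess over coding genes was seen by the signal alone. By signal, a change of at least 10 points upward was seen at 74 regions of 31 genes (54.4%, against 42.7% of shared regions at coding genes) and downward at 2 regions (1.47%, against 2.18%). The 6 genes without such an upward change were Acsl3, Aldoc, Glul, Kcnj2, Rgr and Slc4a3. Since the longer db/db list holds more weak regions, shared regions move up in it. Ranked among shared regions alone, the median change was 0.72 points (−0.24 to 1.62), against −0.08. On that scale 20 regions were at least 10 points higher in db/db (14.7%, against 12.1%) and 11 at least 10 points lower (8.09%, against 12.4%). In the accounts of the groups below, changes are those among shared regions, and percentiles are those of the signal within each list.

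**Figure D3:**
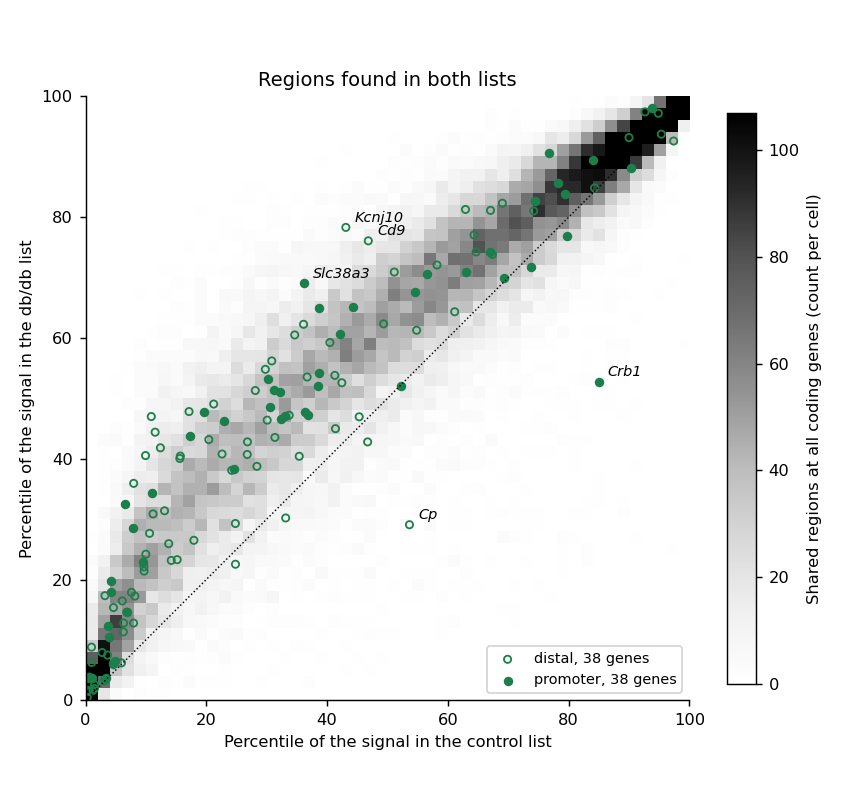
Percentile of the signal in the control list (horizontal) and the db/db list (vertical) for 136 shared regions at the 38 genes, promoter regions filled and distal ones open, over the density of shared regions at all coding genes (grey, counts per cell). Most points follow the grey band above the dotted line of equal percentiles, and regions of Crb1 and Cp lie below it.

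The largest downward change was at Crb1. The region chr1:139255585-139255953 lies 121298 bp into the gene and its summit is 40 bp from the start of Crb1-205, an annotated retained-intron transcript. Its signal was 17.0 in control and 8.94 in db/db, percentile 85.0 and 52.8, a change of −32.2 points within the lists and −48.5 among shared regions. By −log10 p it stood at 71.9 and 36.6. A control-only region at percentile 25.0 lay beside it. The exonic bases of this region, from the GENCODE transcript on the minus strand, are shown with capitals for the bases in the control region that lie outside the db/db region; none of the 10 motifs occurs in them.
Crb1, chr1:139255585-139255762, minus strand: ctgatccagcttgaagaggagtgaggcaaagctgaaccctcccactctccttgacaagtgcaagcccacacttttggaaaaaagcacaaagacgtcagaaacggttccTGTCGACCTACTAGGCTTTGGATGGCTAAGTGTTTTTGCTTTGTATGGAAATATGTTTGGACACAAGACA
At the annotated 5′ start of Crb1 the promoter region stood at 42.1 in control and 60.6 in db/db, which is 18.5 points higher within the lists and 4.80 among shared regions. Crb1 is also transcribed in photoreceptors from other starts. Rod marker regions also differed between the lists. Of 28 control regions at 9 rod markers, 14 had no counterpart in db/db (50.0%, 32.6 to 67.4), against 3.91% at all coding genes. Promoter regions were found for 8 of 9 in control and 6 of 9 in db/db, and the markers with none in db/db were Pde6b, Pde6a and Cnga1. No rod marker was without a region in both lists. By signal the other 14 rod regions did not move one way. Among shared regions the median change was −4.45 points (−15.7 to 12.2), with 4 at least 10 points higher and 4 at least 10 points lower. By −log10 p the median change was −21.7 points (−41.8 to 0.98). Within the lists by −log10 p, 7 were at least 10 points lower (50.0%, against 1.95% at coding genes). On that scale 3 were at least 10 points higher (21.4%, against 48.8%). The strongest promoter region of a gene was taken in each list, and it need not be the same region in both. That of Gnat1 stood at 7.18 in control and 37.4 in db/db, and that of Nr2e3 at 67.3 and 75.7. At Crx the values were 80.3 and 1.85, but they belong to different regions and give no change. The highest control-only rod region stood at percentile 31.5, and the lowest change of any shared region at coding genes was −72.7 points. The part of rod chromatin in the Crb1 change was not tested.

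Within the lists, the other region at least 10 points lower lay in an intron of Cp, which encodes the iron-handling ferroxidase ceruloplasmin. Its signal was 11.1 in control and 6.46 in db/db, percentile 53.6 and 29.1, a change of −24.6 within the lists and −37.3 among shared regions. A second intronic region of Cp stood at 46.7 and 42.8, a change of −19.1 among shared regions. The Cp promoter stood at 24.5 and 38.2, a change of −1.26 among shared regions.

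The largest upward change among shared regions was at Kcnj10. An intronic region 23668 bp from its start (chr1:172364569-172365245) had a signal of 9.76 in control and 13.2 in db/db, percentile 43.1 and 78.3. The change was 35.2 points within the lists and 27.5 among shared regions, and by −log10 p the region stood at 48.4 and 78.7. The intronic region 8801 bp from the start was 11.4 points higher among shared regions. The Kcnj10 promoter itself was 1.04 points lower on that scale.

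**Figure D4:**
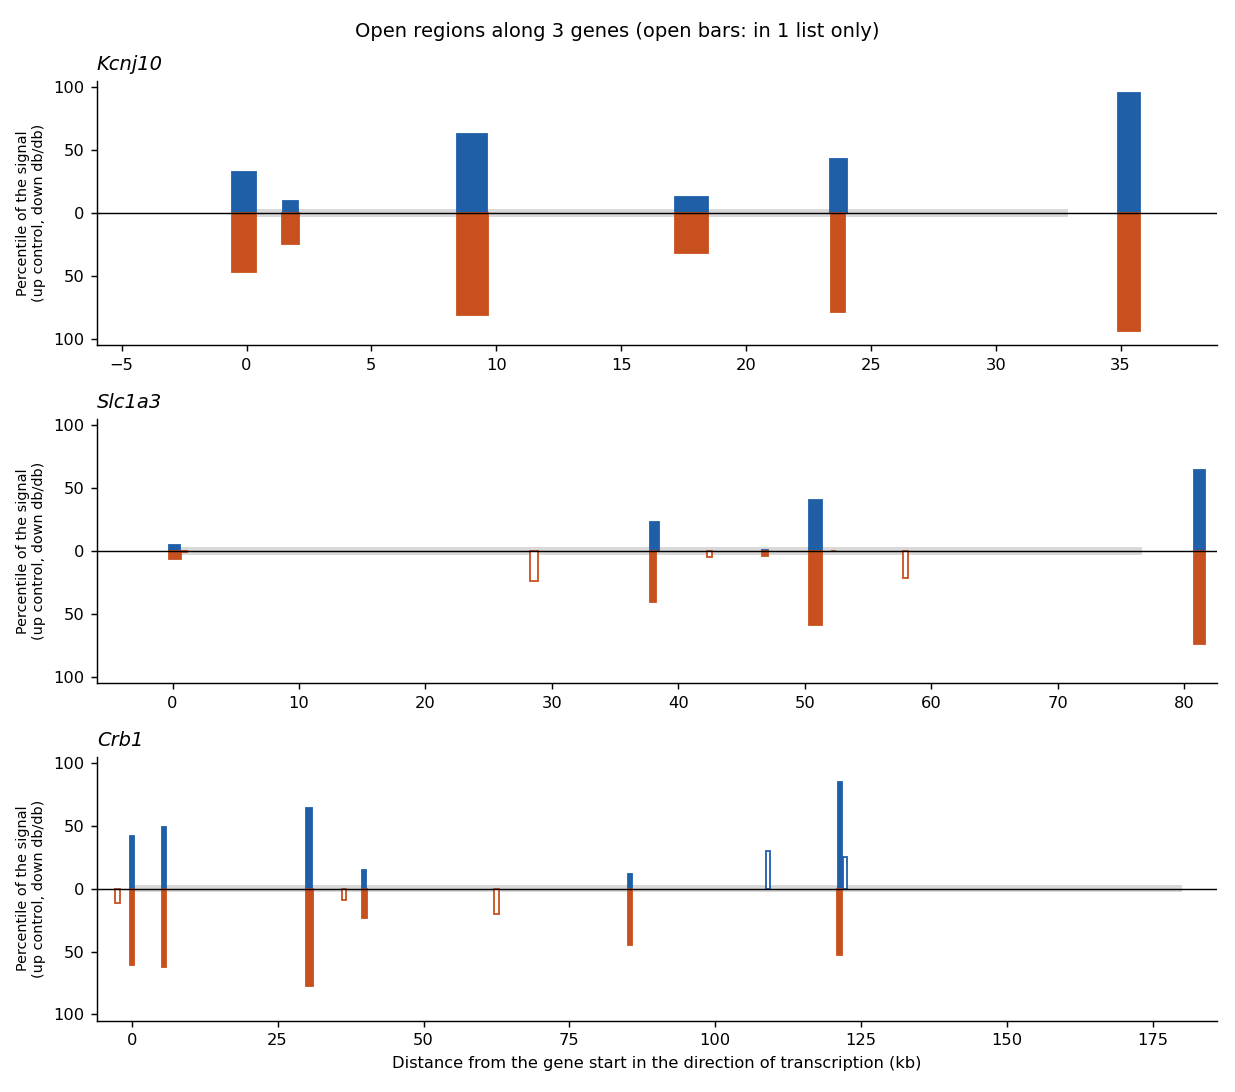
Open regions along Kcnj10, Slc1a3 and Crb1, by distance from the gene start in kb; bars show the percentile of the signal, upward for control and downward for db/db, open bars are regions in 1 list only, and the grey strip is the gene. The Kcnj10 region near 23.7 kb is longer downward (78.3) than upward (43.1), and the Crb1 region near 121 kb is shorter downward (52.8 against 85.0).

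In the transport and glutamate group, 45 shared regions had a median change of 0.47 points among shared regions (−1.10 to 2.96). Slc6a6 had the most upward changes, at 4 of its 8 shared regions, the largest in an intron at percentile 10.9 in control and 47.0 in db/db (19.7 points among shared regions). An intronic Slc38a3 region near an internal start stood at 36.2 and 69.0 (21.6 points). The Slc4a4 promoter was 10.9 points higher and an exonic region of Car2, a carbonic anhydrase, 14.3 points higher. The Glul promoter was 15.3 points lower, with nearly the same percentile within both lists. Of 72 db/db regions in the group, 23 were db/db-only (31.9%, 22.3 to 43.4), near the 29.1% at all coding genes.

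In the retinoid group, 9 shared regions had a median change of −0.11 points. The Rdh10 promoter stood at 19.7 in control and 47.8 in db/db, 12.3 points higher among shared regions, and an intronic Rdh10 region was 13.6 points lower. An Rlbp1 region upstream of the gene, with its summit at −1812 bp from the start, stood at 36.1 and 62.3, 13.0 points higher, while the Rlbp1 promoter was 3.76 points higher. At Rgr the promoter stood at 79.4 and 83.9.

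In the water and potassium group, 28 shared regions had a median change of 1.09 points (−0.68 to 3.53), and 0 of 28 control regions were missing from db/db (0 to 12.1), an interval that holds the 3.91% of all coding genes. The 3 shared Aqp4 regions stood at 6.92, 9.57 and 11.2 in control and at 14.7, 22.9 and 30.9 in db/db, changes of −0.18, 1.67 and 5.45 among shared regions. Dtna had the most control regions of the list, 10, all of them found in db/db. An intronic Dtna region was 12.2 points higher and one downstream of the gene 15.8 points lower (−15.8). The promoters of Mlc1 and Hepacam changed by 1.05 and 1.13 points.

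In the structure and matrix group, 27 shared regions had the highest median change of the 5 groups, 3.78 points among shared regions (−0.27 to 8.21), and its interval reached below 0. Of these, 18 were higher and 9 lower. A region downstream of Cd9 stood at 46.8 and 76.1, 20.5 points higher, and an intronic Crb1 region at 11.5 and 44.4, 16.7 points higher. The promoter of Espn, an actin-bundling protein, stood at 76.8 and 90.6, and that of Sparc at 17.3 and 43.7, 10.5 and 10.7 points higher. Vim, the intermediate filament vimentin, had only its promoter region, at 38.6 and 54.2. The metalloproteinase inhibitor Timp3 stood at 44.3 and 65.0.

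In the metabolic, secreted and other group, 27 shared regions had a median change of −1.26 points (−5.72 to 1.46). It held 6 of the 11 downward changes of at least 10 points and 1 of the 20 upward ones. The promoters of Acsl3, a fatty acyl-CoA ligase, of Aldoc, and of Dbi, an acyl-CoA-binding protein, were 13.2, 12.3 and 11.1 points lower among shared regions (−13.2, −12.3 and −11.1). Within the lists they differed by under 3 points, at 73.7 and 71.7, 79.7 and 76.8, and 69.3 and 69.9. By −log10 p within the lists they stood at 98.0 and 97.6, 94.4 and 96.2, and 94.2 and 95.1. The Acsl3 and Dbi regions also lay within 1 kb of a start site of another coding gene. A region downstream of Crym, a thyroid hormone-binding protein, was 11.5 points lower (−11.5). The upward change was at Ptgds, the prostaglandin D2 synthase, at 38.7 and 64.9. The secreted chaperone Clu stood at 66.9 and 74.2.

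**Figure D5:**
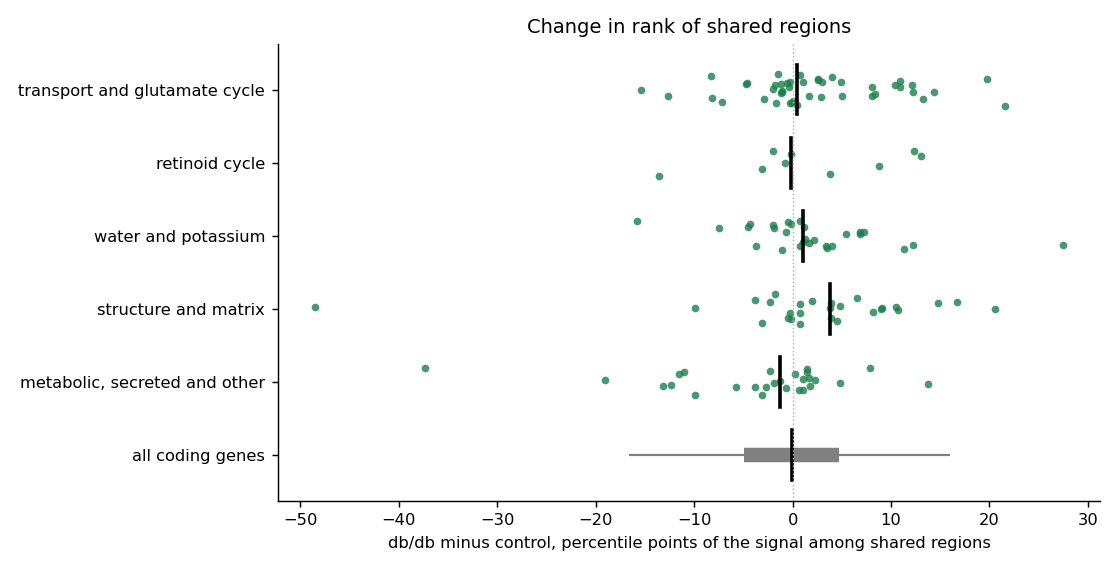
Change in percentile of the signal among shared regions (db/db minus control, horizontal) for each of 136 regions in the 5 groups, with group medians as black bars; the grey bar and line for all coding genes span the middle 50% and the middle 90% of regions. Group medians run from −1.26 to 3.78, and the Crb1 region at −48.5 and the Kcnj10 region at 27.5 are the extremes.

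Another 60 genes of the same pathways were counted for comparison. They were chosen by pathway and were not restricted to genes of Müller cells. Gfap and Slc6a9 are among them and were also counted as an astrocyte marker and an amacrine and ganglion marker. The retinoid part includes Rpe65, Lrat and Rbp3. Of the 60 genes, 49 had a promoter region in control and 48 in db/db. Their median promoter percentile by signal was 63.1 in control and 68.3 in db/db, between the 38 genes and all coding genes, and their median change among shared regions was −0.23 points. Of 215 regions in control, 16 had no counterpart in db/db (7.44%, 4.63 to 11.7), above the 3.91% at all coding genes, most often in structure and matrix (6 of 54) and the retinoid cycle (4 of 23). Markers of other cell types were counted as well. In control 2 of 3 astrocyte, 4 of 6 cone and 4 of 6 bipolar markers had a promoter region. So did 2 of 7 amacrine and ganglion, 1 of 6 microglial and 2 of 6 vascular markers. In db/db the counts were 2, 3, 4, 3, 1 and 2, in the same order. The share over all coding genes was 59.4% in control and 62.5% in db/db. With 3 to 7 genes per group and no matching by CpG class, these counts can neither show nor exclude an excess of such promoters. Of the rod markers described above, 8 of 9 had a promoter region in control and 6 of 9 in db/db. Arr3, Grm6, Cabp5, Tfap2b, Pou4f1, Tmem119 and Rgs5 had no region in either list.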

How the data were processed

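For each peak the authors deposited, in a table of peaks on mm10, a score, a signal and the −log10 of both p and q. The peak caller, its threshold and any pooling of replicates are not given in the sources used here; the authors' score runs from 540 to 1000, and the lowest −log10 p is 2.00 in both lists. What the signal was scaled to is unknown, so signals were compared by rank within a list. Read totals were not used here; the depth behind the lists is unknown.

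Overlapping rows (81757 in control, 109995 in db/db) were merged, keeping the row with the highest signal, and joined to GENCODE M21. Of the summits in control, 29.8% lay within 1 kb of a coding start site, and 6.74% after a shift of 5000 bp. Steps were tested on simulated data and run with Python 3.11.15, numpy 2.4.6, pandas 2.3.3, statsmodels 0.14.6 and matplotlib 3.10.9.

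The members and lists were chosen with earlier results of these data known. Named were Glul, Rlbp1, Kcnj10, Slc1a3 and Aqp4, genes with a region in 1 list only or with a change of at least 10 points, genes without a promoter region, and the 5 strongest and 5 weakest control promoters. CpG classes, ranks among shared regions and the gap between measures were added after the values were seen. The alternatives were a stricter q, equal numbers of regions, −log10 p, other windows, overlaps and promoter widths, nearest genes, and leaving out the gene with most regions. One rod marker of the list is not reported here and was left out of the rod counts.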

Additional observations from a re-analysis of the deposited data

How the results depend on the processing

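Of 56 alternatives over 7 results, 46 kept their value within its interval or count range. Some of these could not change. Ranking by −log10 p leaves the missing shares and promoter counts as they are. The cut to equal numbers leaves the control list whole, and with it the control promoter count and median. With equal numbers of regions in both lists, chosen by −log10 p, 15.8% of control regions were missing from db/db (12.1% at all coding genes), 5.97% of db/db regions were missing from control (11.6%), the db/db promoter median was 35.6 (74.9), and the median change was −0.91 points (−1.10), the reverse of its sign in the full lists; fewer db/db regions enter by construction. By −log10 p the promoter medians were 83.3 in control and 89.5 in db/db; the cause was not tested. Among shared regions alone, an alternative chosen after seeing the data, the median change was 0.72 points by signal, 0.61 by −log10 p, 1.05 at promoter regions and 0.63 at distal regions. Leaving out Dtna, the gene with most control regions, kept every one of the 7 results within its range. No paired analysis was possible because 1 list per genotype was analysed. With 1 list per genotype and unknown depth, a difference between lists cannot be told apart from a difference between libraries.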
